A study of Mus musculus with 14 samples.

Results

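The group described here holds 10 genes chosen by name, which are Eef1a1, Eef1b2, Eef1g, Eef2, Tpt1, Pabpc1, Npm1, Gas5, Snhg6 and Snhg8. The choice was made with earlier results of these data known, so counts of them set beside all genes are description and no test. The genes are non-ribosomal mRNAs with a 5′ terminal oligopyrimidine (TOP) tract, or hosts of small nucleolar RNAs (snoRNAs). Array probes were assigned by the RefSeq transcript accession of each probe, with the version removed, which gave 16 probes for 8 of the 10 genes, out of 14453 genes tested. No probe was assigned to Gas5 or Snhg8 in this way, so they carry no values here. RNA came from the mPFC (medial prefrontal cortex, a part of the frontal lobe that takes part in social and emotional control) of wild-type C57BL/6 mice. Of the mice put through repeated social defeat stress (R-SDS, repeated exposure to an aggressive mouse), 6 were classed by behaviour as susceptible and 3 as resilient. A further 5 naive mice had cage transfer instead of defeat. All mice were perfused with D-PBS at 4 h after the last session, a 1.5 mm punch was taken from the mPFC, and 35 ng of RNA from each mouse went to its own 1-colour (Cy3) array. The mice came from independent experiments, and which mouse belonged to which experiment was not given in the sources used here.

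TOP mRNAs begin with a cytosine followed by an unbroken run of pyrimidines, and this start lets the mTORC1 kinase complex, partly through the RNA-binding protein LARP1, switch their translation on and off together and affect their stability. Most of them encode ribosomal proteins, and the others include elongation factors and proteins of RNA handling. In neurons TOP mRNAs are also found in axons and dendrites, where their translation responds to mTORC1. SnoRNA host genes carry snoRNAs, the guides of ribosomal RNA modification, inside their introns. Many of them have TOP starts as well, and the spliced non-coding transcripts of several are degraded by nonsense-mediated decay. Gas5 is one such host, known from human cells to bind the glucocorticoid receptor.

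The starts annotated by RefSeq (GRCm38.p6) are shown because a pyrimidine tract at the start is what names TOP mRNAs, though the genes here were chosen by name. Each window of 30 bases has 8 bases before the annotated first transcribed base and runs on from it, 5′ to 3′ on the gene's strand. Capitals mark a C followed by at least 4 bases that are all C or T.
Eef1a1, chr9:78481703-78481732, minus strand: ccgCCCTCTTCCCgagggtgggggagaacg
Eef2, chr10:81176623-81176652, plus strand: ggccgggcgttgacgtcagcggtCTCTTCC
Gas5, chr1:161035158-161035187, plus strand: atctcagCCTTTCggagctgtgcggcattc
Snhg8, chr3:123508315-123508344, minus strand: tcagaagtCTCTTTggctgcgatccgccta
Eef1b2, chr1:63176823-63176852, plus strand: gcagttccgccggaagtagccgaggccttg
Tpt1, chr14:75845248-75845277, plus strand: ctgacgacagttccgggggagccgcggacg
The capitals begin 5 bases before the annotated start in Eef1a1 and 1 base before it in Gas5, and at the start itself in Snhg8. Gas5 has another annotated start upstream of the one shown (window chr1:161034593-161034622), which held no such run in its 30 bases. In Eef2 they begin at base 16. No such run lies in the windows shown for Eef1b2 and Tpt1, which says only that these letters are not there, since an annotated start can differ from the start a tissue uses. Eef1g, Pabpc1, Npm1 and Snhg6 had no entry in the promoter table.

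Within 10 bases either side of the annotated start, read on the gene's strand, 3 of the 6 genes with an entry held such a run. The same was true of 34.4% of all 27025 genes in the table and of 62.9% of the 62 cytosolic ribosomal protein genes, where a gene counts if any of its annotated starts held the run. Of the 4 genes with both an entry and a probe, only Eef1a1 held it. Within 25 bases either side the run was found in 4 of the 6 genes, 59.3% of all genes and 87.1% of ribosomal protein genes. The wider search thus matches most genes of any kind.

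Values are log2 of the scanner software's background-subtracted signal minus the 75th percentile of the array, and differences are log2 ratios of these scaled signals. All 16 probes were well above background on all 14 arrays. Levels are compared only within a gene, since probes differ in how brightly they report. The 14 arrays came from 3 slides, of which the third was scanned on a day of its own and had susceptible and naive mice only, 2 of each. Defeated mice always occupied row 2 of a slide and naive mice row 1, so effects of row and of defeat cannot be told apart. The share of spots well above background ranged from 48.0% to 65.4% by array, and precision is limited by the small number of arrays. All 6 neuron markers (Rbfox3, Snap25, Syt1, Tubb3, Nefl and Stmn2) and all 4 cortical excitatory markers were above background on every array.

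**Figure D1:**
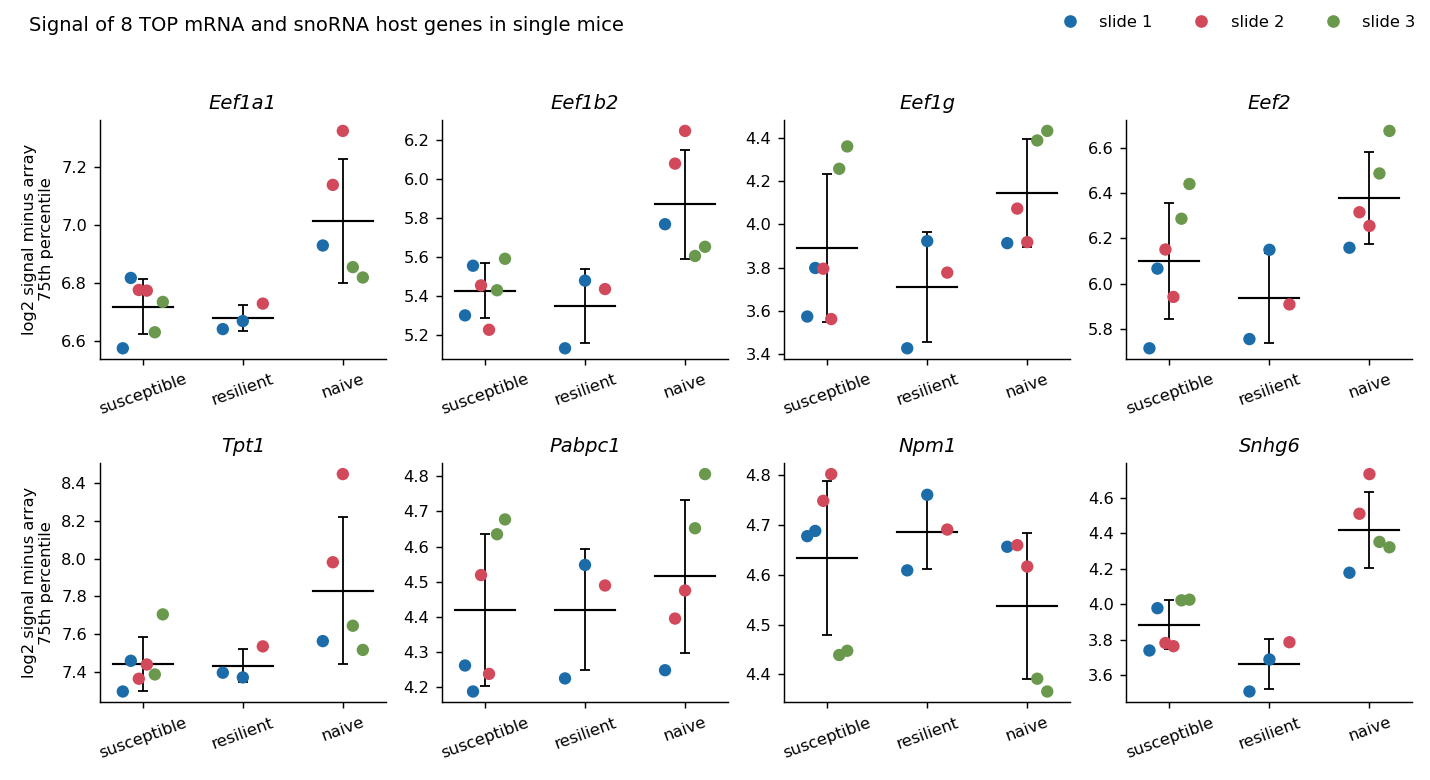
Signal of the 8 genes in each mouse (log2 signal minus the 75th percentile of the array, 1 point per mouse, coloured by slide), with the group mean and its SD, for 6 susceptible, 3 resilient and 5 naive mice. All susceptible and resilient points of Eef1a1, Eef1b2 and Snhg6 lie below the 5 naive points, while those of Pabpc1 and Npm1 overlap with them.

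Susceptible mice were set against naive mice to ask whether the level of these transcripts differed in the defeated mice classed as susceptible. Snhg6, the host of snoRNAs of the box C/D type, was the single gene of the 8 that passed the test, and it fell by 31.0%. Of the 8 genes, 7 had a lower mean in susceptible mice, and their median difference was -0.29, against 0.02 over all genes tested. In this comparison 2.60% of all genes tested passed the threshold (adjusted p under 0.05), with 0.962% of all genes falling and 1.64% rising. With the slide as a block in the fit, Eef1a1, Eef1b2 and Snhg6 fell, 3 of 8, where 15.3% of all genes passed, with 6.48% of all genes falling and 8.83% rising. The median difference of the 8 genes in that fit was -0.27. RNA was taken from whole tissue, so fewer cells of a type and less RNA per cell cannot be told apart.

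Snhg6 had values of 3.74, 3.88 and 4.03 in susceptible mice (lowest, median and highest of 6), against 4.18, 4.51, 4.73, 4.35 and 4.32 in naive mice. Every susceptible mouse lay below every naive mouse, and the highest naive values came from the 2 naive mice of slide 2. The difference was -0.53 ± 0.11 (SE, limma adjusted p = 0.0312, n = 6 and 5), and with the slide as a block the difference was -0.51 (adjusted p = 0.0128). Within slides 1, 2 and 3 the differences of the group means were -0.32, -0.85 and -0.31. Without the arrays of slide 2 the difference was -0.34 and no longer passed (adjusted p = 0.385), and in that smaller limma fit 0 of all genes passed (1478 had an unadjusted p under 0.05). Leaving out 1 mouse at a time kept the call in 7 of 14 fits. It was lost without naive mouse 2 or 3 or any of susceptible mice 1 to 5 (adjusted p from 0.0223 to 0.0699 over the 14 fits), whereas with the slide as a block it was kept in 14 of 14 (0.0110 to 0.0344).

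The elongation factors are the largest class among the genes. Eef1b2 encodes a subunit of the eEF1B complex, which recharges eEF1A with GTP. It had 5.23, 5.44 and 5.59 in susceptible mice (lowest, median and highest), against 5.77, 6.08, 6.24, 5.61 and 5.65 in naive mice. All 6 susceptible mice lay below all 5 naive mice, with the naive mice of slide 3 closest to them. The difference was -0.44 ± 0.13 and did not pass (limma adjusted p = 0.0689). With the slide as a block it was -0.44 and passed (adjusted p = 0.0344), and that call was kept in 7 of 14 fits without 1 mouse (0.0197 to 0.0834). It was lost without any of naive mice 1 to 3 or of susceptible mice 1, 3, 4 and 5.

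Eef1a1, which brings aminoacyl-tRNA to the ribosome, had 6.58, 6.75 and 6.82 in susceptible mice, against 6.93, 7.14, 7.32, 6.85 and 6.82 in naive mice. At this brighter of its 2 probes the groups did not overlap, though naive mouse 5 and susceptible mouse 2 were almost level. The difference was -0.30 ± 0.10 (limma adjusted p = 0.101), and with the slide as a block it was -0.29 and passed (adjusted p = 0.0340). That call was kept in 6 of 14 fits without 1 mouse (0.0247 to 0.0800) and lost without any of naive mice 1 to 4 or of susceptible mice 1, 3, 4 and 5. With Snhg6, these 2 genes made 3 of 8 whose susceptible mice all lay below the naive mice, which held for 1.64% of all genes tested, and 2.49% had every susceptible mouse above them.

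Eef2, the factor that moves the ribosome along the mRNA, had 5.72, 6.11 and 6.44 in susceptible mice, against 6.16, 6.32, 6.26, 6.49 and 6.67 in naive mice. The groups overlapped, and 4 of 6 susceptible mice lay below every naive mouse. The difference was -0.28 ± 0.14 (limma adjusted p = 0.230), and it was nearly the same within slides 1, 2 and 3, at -0.27, -0.24 and -0.22. Eef1g, a structural subunit of eEF1B, had 3.56, 3.80 and 4.36 in susceptible mice, against 3.91, 4.07, 3.92, 4.39 and 4.43 in naive mice. Here too 4 of 6 susceptible mice lay below every naive mouse, and the other 2 were those of slide 3. The difference was -0.25 ± 0.17 (limma adjusted p = 0.378).

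Tpt1 encodes the translationally controlled tumour protein, a small abundant protein linked to growth and cell survival. Its values were 7.29, 7.41 and 7.70 in susceptible mice, against 7.56, 7.98, 8.45, 7.64 and 7.51 in naive mice. Susceptible mouse 6 lay among the naive mice and the other 5 below them. The difference was -0.39 ± 0.15 (limma adjusted p = 0.138), but within slides 1, 2 and 3 it was -0.19, -0.82 and -0.03, so that slide 2 carried most of it.

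Pabpc1 and Npm1 had the smallest differences of the 8 genes. Pabpc1, the cytoplasmic poly(A)-binding protein, had 4.19, 4.39 and 4.68 in susceptible mice, against 4.25, 4.40, 4.48, 4.65 and 4.81 in naive mice. The groups overlapped, and the difference was -0.10 ± 0.13 (limma adjusted p = 0.682; 95% interval -0.37 to 0.18). Npm1, a nucleolar chaperone of ribosome assembly, had 4.44, 4.68 and 4.80 in susceptible mice, against 4.66, 4.66, 4.62, 4.39 and 4.37 in naive mice. In each group the low Npm1 values were those of slide 3. The difference was 0.10 ± 0.10 (limma adjusted p = 0.579; 95% interval -0.11 to 0.31).

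**Figure D2:**
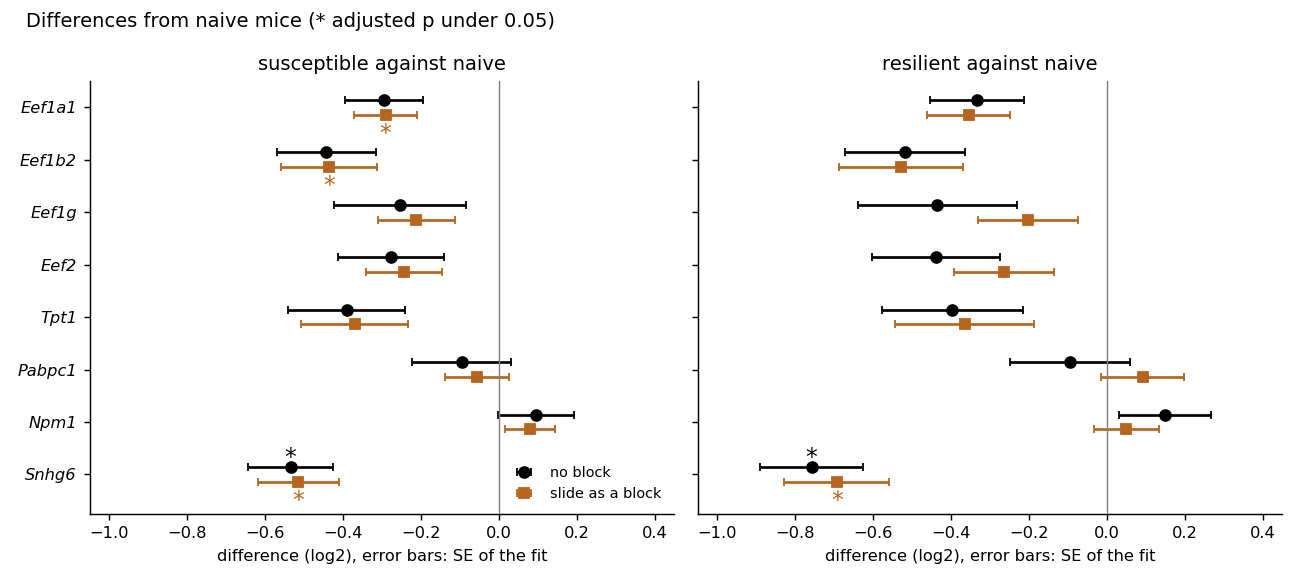
Difference from naive mice (log2) of each gene, with the SE of the limma fit as error bars, for the fit with no block (black) and with the slide as a block (brown), in susceptible (left) and resilient mice (right). Snhg6 is marked as past the threshold in both groups and both fits, Eef1a1 and Eef1b2 in susceptible mice with the slide as a block alone.

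Several of the genes also differed between slides. On slide 3, Eef1g averaged 4.31 in susceptible mice and 4.41 in naive mice, against 3.68 and 3.97 on the other slides. Eef2 and Pabpc1 were higher on slide 3 in the same way, by 0.39 and 0.35 in susceptible mice and by 0.34 and 0.36 in naive mice. Npm1 was lower there, with differences of -0.29 in susceptible mice and -0.27 in naive mice. Eef1a1, Eef1b2 and Tpt1 behaved otherwise: in naive mice they stood at -0.29, -0.40 and -0.42 on slide 3 relative to the other slides, while in susceptible mice the same differences were -0.05, 0.13 and 0.16. The naive mice of slide 2 had the highest values of these 3 genes and of Snhg6. Their part in the differences between groups is given by the values within slides.

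**Figure D3:**
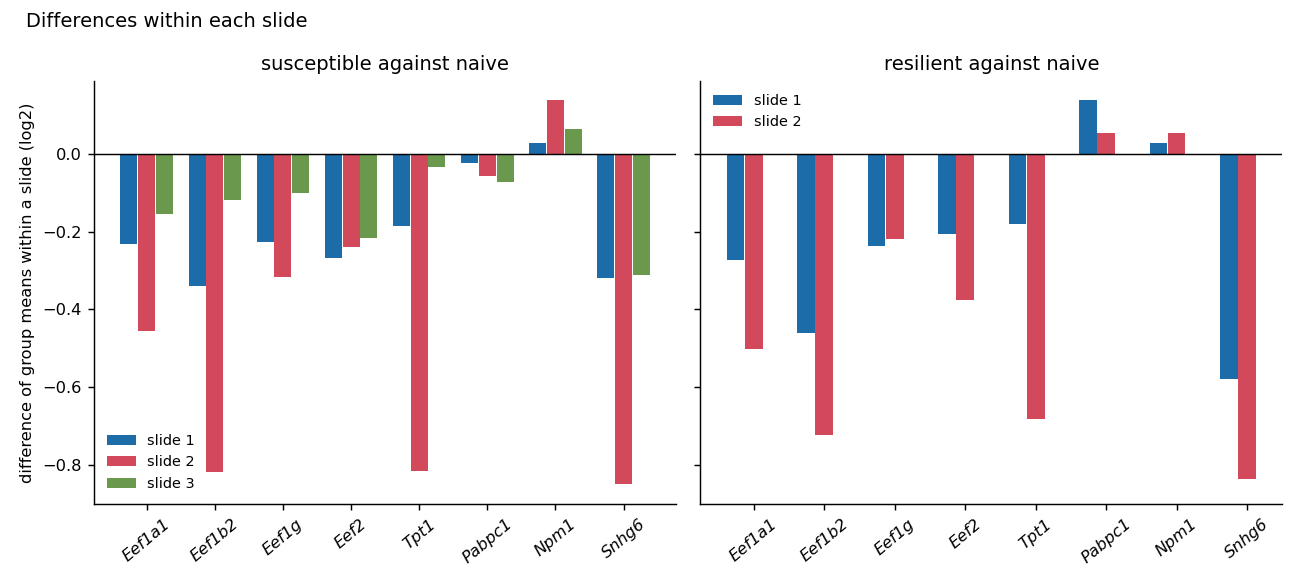
Difference of the group means within each slide (log2; bars start at 0), for susceptible against naive mice on 3 slides (left) and resilient against naive mice on 2 slides (right). Snhg6, Eef1b2 and Tpt1 have their longest bars on slide 2, and Snhg6 stays at -0.31 or lower on every slide.

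For 4 of the genes there was more than 1 probe. The 3 probes of Tpt1 gave differences of -0.39, -0.43 and -0.40 between susceptible and naive mice, and the 2 probes of Eef1a1 gave -0.30 and -0.29. In mean difference the probes of each of these genes thus differed by far less than the SE of the fit. The calls and overlaps given for genes come from the brightest probe of each. At the second probe of Eef1a1, 3 of 6 susceptible and 2 of 3 resilient mice lay below every naive mouse. In susceptible mice it did not pass with the slide as a block (limma adjusted p = 0.114). At the second probe of Tpt1 all 6 susceptible mice lay below every naive mouse, and it passed with the block (adjusted p = 0.0458). The 2 probes of Eef1g gave -0.25 and -0.12, within their SEs of 0.17 and 0.26. The 5 probes of Npm1 did not share a sign, with 0.10, -0.16, -0.06, 0.10 and -0.23, and none passed the test over probes. Snhg6 had 1 probe. In the test over probes it passed in susceptible mice (limma adjusted p = 0.0434) but not in resilient mice (adjusted p = 0.0839). With the slide as a block it passed that test in both (adjusted p = 0.0148 and 0.0312). Eef1a1, Tpt1 and Npm1 have many processed pseudogenes, and probe specificity was not analysed here.

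**Figure D4:**
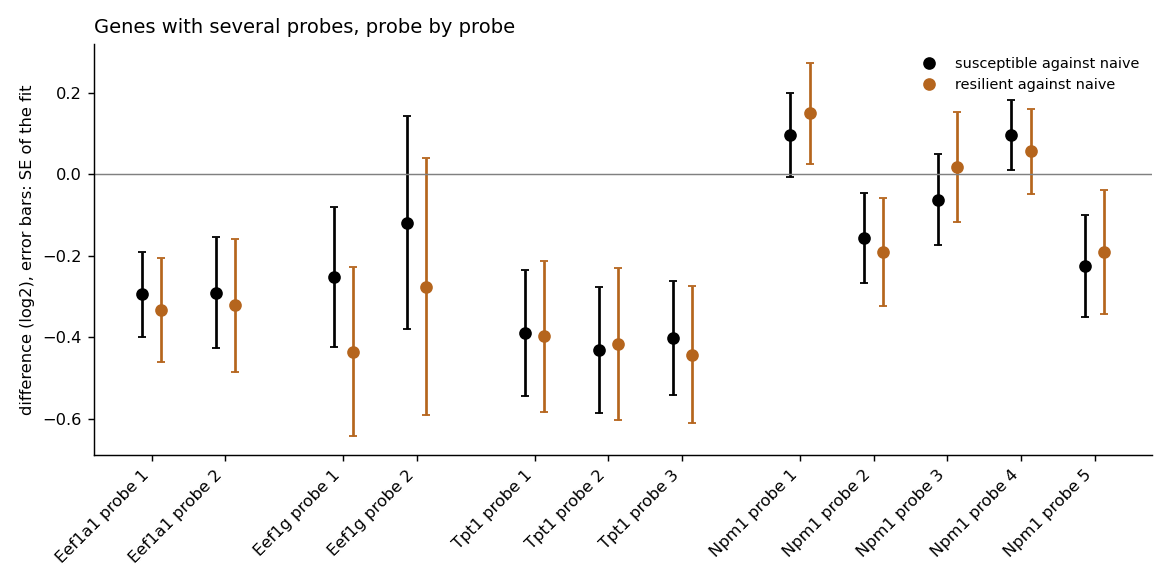
Difference from naive mice (log2, error bars: SE of the fit) for each probe of the 4 genes with several probes, in susceptible (black) and resilient mice (brown). The probes of Eef1a1 and of Tpt1 lie together below 0, and the 5 of Npm1 lie on both sides of 0.

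Resilient mice were compared with the same naive mice, so the values below share their controls with those above. Snhg6 fell by 40.9% and was again the single gene of the 8 to pass. In this comparison 0.145% of all genes tested passed, with 0.0623% of all genes falling and 0.0830% rising. A lower mean in resilient mice was found for 7 of the 8 genes, with a median difference of -0.42 against 0.02 over all genes. With the slide as a block Snhg6 alone passed, where 3.54% of all genes did, with 1.50% of all genes falling and 2.03% rising. In that fit 6 of the 8 genes were lower and their median difference was -0.31. Within slides 1 and 2 the median was -0.22 and -0.44, and slide 3 held no resilient mouse.

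Snhg6 had 3.51, 3.69 and 3.79 in resilient mice, against 4.18 to 4.73 in naive mice. All 3 resilient mice lay below every naive mouse. The difference was -0.76 ± 0.13 (limma adjusted p = 0.0405, n = 3 and 5), -0.69 with the slide as a block (adjusted p = 0.0293), and -0.58 and -0.84 within slides 1 and 2. The call was kept in only 2 of 14 fits that left out 1 mouse, those without naive mouse 1 or susceptible mouse 6 (adjusted p from 0.0331 to 0.285 over the 14). With the slide as a block it was kept in 7 of 14. Without the arrays of slide 2 the difference was -0.69 and did not pass (adjusted p = 0.264).

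Of the elongation factors, Eef1b2 had 5.13, 5.48 and 5.44 in resilient mice, against 5.61 to 6.24 in naive mice. The groups did not overlap, and the difference of -0.52 ± 0.15 did not pass (limma adjusted p = 0.106). Deviations of resilient and naive mice of the same replicate number correlated weakly (0.11, 0.32 and 0.28). Those numbered 1 and 3 also shared a slide, and the labels do not say that equal numbers mean pairs. With the replicate number as a block the difference of Eef1b2 was -0.62 and passed (limma adjusted p = 0.0303), as did Snhg6 at -0.77 (adjusted p = 0.0254). In that fit 728 of all 14453 genes passed, against 21 with no block. Eef1a1 had 6.64, 6.67 and 6.73 in resilient mice, against 6.82 to 7.32 in naive mice, with a difference of -0.33 ± 0.12 (limma adjusted p = 0.148). Eef2 had 5.76, 6.15 and 5.91 in resilient mice, against 6.16 to 6.67 in naive mice, with a difference of -0.44 ± 0.16 (limma adjusted p = 0.159). Eef2 was high on slide 3, which held no resilient mouse, and with the slide as a block its difference was -0.27 (adjusted p = 0.204). At the probes used the groups did not overlap for either gene, though resilient mouse 2 lay just under the lowest naive mouse in Eef2. Together with Eef1b2 and Snhg6 this made 4 of 8 genes with every resilient mouse below every naive mouse, where 6.41% of all genes tested had the same and 8.32% had every resilient mouse above.

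Eef1g had 3.43, 3.92 and 3.78 in resilient mice, against 3.91 to 4.43 in naive mice, with a difference of -0.44 ± 0.20 (limma adjusted p = 0.246). No resilient mouse lay on slide 3, where Eef1g was high, and with the slide as a block the difference was -0.20. Tpt1 had 7.39, 7.37 and 7.53 in resilient mice, against 7.51 to 8.45 in naive mice, and the difference was -0.40 ± 0.18 (limma adjusted p = 0.236). The third resilient value of Tpt1 reached into the naive range, and the other 2 lay below it. Pabpc1 had 4.23, 4.55 and 4.49 in resilient mice, against 4.25 to 4.81 in naive mice, with a difference of -0.09 ± 0.15 (limma adjusted p = 0.776) that was 0.09 with the slide as a block. Npm1 had 4.61, 4.76 and 4.69 in resilient mice, against 4.37 to 4.66 in naive mice, with a difference of 0.15 ± 0.12 (limma adjusted p = 0.505). The groups overlapped for all 4 of these genes.

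Susceptible and resilient mice were compared to ask whether the behavioural classes of defeated mice differed in these transcripts. None of the 8 genes passed in limma, none had an unadjusted p under 0.05, and the percentage of all genes that passed was 0 (109 of 14453 had an unadjusted p under 0.05). Snhg6 averaged 3.89 ± 0.14 in susceptible mice and 3.66 ± 0.14 in resilient mice (SD, n = 6 and 3). The difference was 0.22 ± 0.13 (limma adjusted p = 1.00) with a 95% interval from -0.05 to 0.50. The intervals of the other genes also held 0. They ran from -0.21 to 0.29 for Eef1a1, -0.24 to 0.40 for Eef1b2, -0.18 to 0.50 for Eef2 and -0.24 to 0.60 for Eef1g. For Tpt1 the interval was -0.37 to 0.38, for Pabpc1 -0.32 to 0.32 and for Npm1 -0.30 to 0.19. For Eef2, Eef1g, Pabpc1 and Npm1 a difference between the classes as large as those from naive mice lies inside the interval. For Snhg6, Eef1b2, Eef1a1 and Tpt1 it does not, though in Eef1a1 and Tpt1 only just. The test does not show that the classes were alike.

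The other genes of the TOP and snoRNA host pathways were read from lists, and their values share the same naive mice. Counts in these lists stand against all genes tested, of which 24.0% had an unadjusted p under 0.05 in susceptible mice and 20.3% in resilient mice. When the slide was a block, 8.83% of all genes rose and 6.48% fell in susceptible mice, and 2.03% rose and 1.50% fell in resilient mice. Of 19 other non-ribosomal TOP mRNAs tested, 1 fell in susceptible mice and none rose, 15 had a lower mean, and the median was -0.17. The one that fell was Rack1, a scaffold protein of the small ribosomal subunit, at -0.51 ± 0.12 (limma adjusted p = 0.0412), with all 6 susceptible mice below every naive mouse. Rack1 fell with the slide as a block as well (adjusted p = 0.0148), and 1 gene rose, the nuclear import receptor Ipo7, named after its values were seen (0.79 ± 0.21 and limma adjusted p = 0.0561 with no block, 0.0289 with it). After quantile normalisation none of the 19 fell and 1 rose. In resilient mice none of the 19 passed and the median was -0.21, with the lowest p for Rack1 (-0.64 ± 0.15, limma adjusted p = 0.0734) and the chaperone subunit Pfdn5 (-0.46 ± 0.13, adjusted p = 0.103). Rack1 fell there with the slide as a block, at -0.60 (adjusted p = 0.0398), and no other gene of the list passed.

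The largest TOP class, the cytosolic ribosomal protein genes, had 79 members tested. In susceptible mice 2 of them fell, Rpl4 (-0.41 ± 0.09, limma adjusted p = 0.0391) and Rpl21 (-0.44 ± 0.11, adjusted p = 0.0431), 78 had a lower mean and the median was -0.41. With the slide as a block 53 of the 79 fell. In resilient mice none passed (69 had an unadjusted p under 0.05), 78 had a lower mean and the median was -0.50, and with the slide as a block 28 fell. Rpl21 and Rpl36a had the lowest p there, at -0.61 ± 0.13 (limma adjusted p = 0.0655) and -0.72 ± 0.17 (adjusted p = 0.0818).

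The other snoRNA hosts had no common direction. Of 20 tested (28 listed), none passed in susceptible mice (9 had an unadjusted p under 0.05), 10 had a higher and 10 a lower mean, and the median was 0.01. Snhg3, a non-coding host, stood at -0.53 ± 0.14 in susceptible mice (limma adjusted p = 0.0543) and passed with the slide as a block (adjusted p = 0.0225). Nop58, which hosts snoRNAs and encodes a core protein of box C/D snoRNPs, stood at 0.39 ± 0.12 (limma adjusted p = 0.0905) and passed with the slide as a block (adjusted p = 0.0498). In that fit 1 of the 20 rose and 2 fell, the other being Snhg15, named after its values were seen (-0.29 ± 0.13 with no block, limma adjusted p = 0.206, and 0.0488 with the block). In resilient mice none of the 20 passed (6 had an unadjusted p under 0.05) and the median was -0.01, with Snhg3 at -0.61 ± 0.16 (limma adjusted p = 0.0971) and Snhg12 at -0.43 ± 0.14 (adjusted p = 0.121). The difference between Snhg6 and these hosts was not tested.

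Among 24 genes of the mTORC1 pathway and LARP1, which control TOP mRNAs, none passed in susceptible mice (4 had an unadjusted p under 0.05). Of the 24, 16 had a higher and 8 a lower mean, and the median was 0.12. Ddit4 and Sesn1, both stress-induced inhibitors of mTORC1, had the lowest p. Ddit4 averaged 4.33 ± 0.34 in susceptible mice and 3.63 ± 0.27 in naive mice (SD, n = 6 and 5), a difference of 0.71 ± 0.19 (limma adjusted p = 0.0625). Sesn1 averaged 2.63 ± 0.23 in susceptible mice and 2.11 ± 0.24 in naive mice, a difference of 0.52 ± 0.13 (limma adjusted p = 0.0533). Both passed with the slide as a block (adjusted p = 0.0339 and 0.0108), where 3 of the 24 rose and 1 fell. The third that rose was Mlst8 (0.30 ± 0.11 and limma adjusted p = 0.120 with no block, 0.0387 with it). The one that fell was Larp1b (-0.33 ± 0.11 and limma adjusted p = 0.105 with no block, 0.0454 with it). Mlst8 and Larp1b were named after their values were seen. In resilient mice none of the 24 passed (4 had an unadjusted p under 0.05), Ddit4 differed by 0.81 ± 0.23 and Sesn1 by 0.55 ± 0.16 (limma adjusted p = 0.103 for each), and Sesn1 passed with the slide as a block (adjusted p = 0.0346).

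Of 12 nonsense-mediated decay factors tested, none passed in susceptible mice (4 had an unadjusted p under 0.05), 10 had a higher mean, and the median was 0.22. Smg5 and the endonuclease Smg6 had the lowest p, at 0.35 ± 0.10 (limma adjusted p = 0.0648) and 0.33 ± 0.10 (adjusted p = 0.0753), and 4 of the 12 rose with the slide as a block. In resilient mice none passed (4 had an unadjusted p under 0.05), 11 had a higher mean and the median was 0.25, led by Smg6 (0.46 ± 0.12, limma adjusted p = 0.0948) and Smg9 (0.33 ± 0.15, adjusted p = 0.221). Of 15 partners and paralogs of the elongation factors and of the poly(A)-binding and nucleolar proteins, Eef1akmt1, a methyltransferase of eEF1A known from human cells, rose in susceptible mice by 0.42 ± 0.10 (limma adjusted p = 0.0412), and none fell. None of the 15 passed in resilient mice (2 had an unadjusted p under 0.05), with Eif5a2 at -0.30 ± 0.11 (limma adjusted p = 0.166) and Eef1akmt1 at 0.27 ± 0.12 (adjusted p = 0.219). Between susceptible and resilient mice none of the genes of these lists passed.

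**Figure D5:**
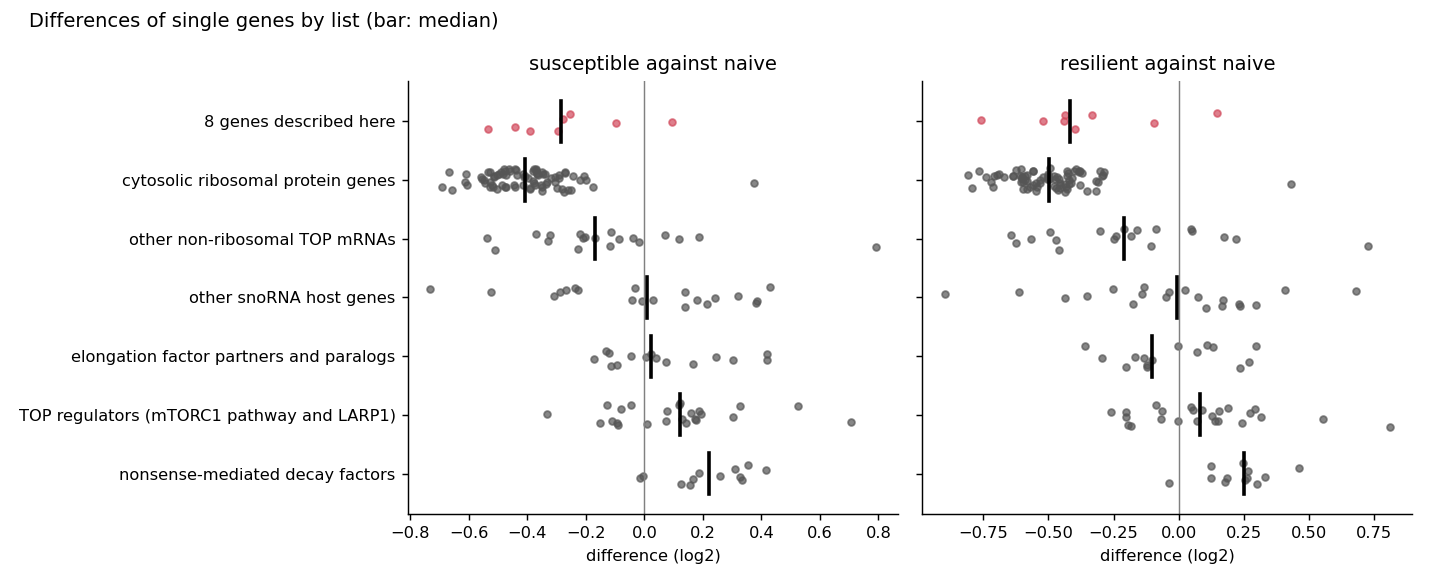
Difference from naive mice (log2) of each tested gene by list, 1 point per gene with the median as a bar, in susceptible (left) and resilient mice (right). The medians of the 8 genes described here (-0.29 and -0.42) and of ribosomal protein genes (-0.41 and -0.50) lie below 0, and those of decay factors (0.22 and 0.25) above it. The fit shown has no block. With the slide as a block the medians of the 8 genes were -0.27 and -0.31.

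Differences from naive mice also varied with the brightness of the probes. The 8 genes lay between the 88.8 and 99.3 percentile of mean signal among all genes tested. Of the 144 brightest genes (the top 1%, among them Tpt1 alone of the 8), 83.3% had a lower mean in susceptible mice and 81.9% in resilient mice, with medians of -0.36 and -0.32. Of the 722 brightest (the top 5%, with 4 of the 8), 64.4% had a lower mean in susceptible mice and 64.0% in resilient mice. Their medians were -0.10 and -0.11. Quantile normalisation, which gives all arrays the same distribution of signals, brought the brightest of the 8 close to 0. In susceptible mice Tpt1 then differed by -0.07, Eef1a1 by -0.07 and Eef2 by -0.12, while Snhg6 differed by -0.49 (limma adjusted p = 0.0244) and Eef1b2 by -0.30 (adjusted p = 0.0989). In resilient mice the same scaling gave -0.04 for Tpt1, -0.08 for Eef1a1, -0.25 for Eef2, -0.35 for Eef1b2 and -0.69 for Snhg6 (limma adjusted p = 0.0434). The median of the ribosomal protein genes became -0.15 in susceptible and -0.21 in resilient mice under this scaling. The part of brightness in the differences was not tested beyond these values.

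Markers of several other cell types differed between the same groups, and not all did. Summed microglia markers overlapped with naive mice, at 5.75 to 6.05 in susceptible and 5.745 to 5.96 in resilient mice, against 5.53 to 6.21. Those of oligodendrocyte precursors did too, at 2.77 to 3.32 and 2.83 to 3.08, against 2.63 to 3.25 in naive mice. The summed level of 5 endothelial markers lay between 3.65 and 4.29 in susceptible mice and between 3.63 and 4.73 in resilient mice, against 4.44 to 5.06 in naive mice, and 2 of the 5 fell in susceptible mice. That of 6 astrocyte markers lay between 6.16 and 6.66 in susceptible mice and between 6.02 and 6.40 in resilient mice, against 6.48 to 7.10 in naive mice, and 1 of the 6 fell in susceptible mice. Meningeal fibroblast markers (4 of 6 above background on every array) summed to 2.44 to 4.53 in susceptible mice and 2.69 to 4.60 in resilient mice, against 3.76 to 4.95 in naive mice. Erythroid markers (2 of 4 above background on every array) summed to 0.74 to 4.00 in susceptible mice and 0.72 to 3.36 in resilient mice, against -0.04 to 1.80 in naive mice. Neutrophil markers (3 of 5 tested, 1 of 5 above background on every array) summed to -0.17 to 2.67 in susceptible mice and -0.29 to 0.98 in resilient mice, against -1.29 to -0.45 in naive mice, so neither class of defeated mice overlapped with naive mice. Their median differences were 3.53 in susceptible mice, where 2 of the 3 rose, and 2.49 in resilient mice, where none passed. Pericyte and smooth muscle markers (4 of 6 above background on every array) summed to 2.28 to 4.33 in susceptible mice and 2.41 to 4.30 in resilient mice, against 3.47 to 4.88 in naive mice, with median differences of -0.92 and -0.76 and none passing. Of the 6 neuron markers, 5 had a higher mean in susceptible and 6 in resilient mice, with median differences of 0.21 and 0.25. All 4 inhibitory neuron markers were higher in both classes, with medians of 0.19 and 0.22. Of the 4 cortical excitatory markers 2 were higher and 2 lower in each class, with medians of -0.09 and -0.16. No marker of these neuron lists passed. None of the markers with a probe in these lists was below background on every array. Their part in the differences of the 8 genes was not tested.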

How the data were processed

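Gene expression was measured on 1-colour Agilent arrays, 1 mouse per array (14 arrays). Per the file headers, each deposited scanner file was written by Agilent Feature Extraction 11.0.1.1, with linear intensities. The processed signal used is the intensity after that software's background subtraction, with no scaling between arrays. The authors also deposited a table of log2 values, whose columns correlated with log2 of the processed signal at r = 1.00, differed from it by 1 constant per array, and have medians from -3.09 to -2.74, with genes not centred.

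Of 62976 spots per array, 3671 controls and the 104 to 184 spots marked as outliers were left out, no spot was saturated, and spots of a probe were averaged. The 75th percentile of the non-control spots was subtracted from log2 of the signal. A probe was tested where each array of some group had it well above background. Gene names came from RefSeq accessions in a gene table (GRCm38.p6) and serve as names only (27509 of 55681 probes, 20887 genes, and 28172 probes unnamed). The probe of highest mean signal stood for a gene. This left 14453 genes, without 7 that had an outlier spot on some array.

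The comparisons used 1 fit of 14 arrays with limma 3.58.1 (lmFit, eBayes) in R 4.3.3, with Benjamini-Hochberg adjustment over all genes tested and calls at adjusted p under 0.05. The script was tested on simulated data. Members and lists were chosen with earlier results of these data known. All members are named. Of each other list the text names up to 5 genes that passed by smallest p, or the 2 of smallest p, and of ribosomal protein genes 2 examples. Replicate numbers come from the labels. Deviations of same-numbered resilient and naive mice correlated at 0.11, 0.32 and 0.28, so the replicate block is given beside that comparison. Those of susceptible and naive mice ran from -0.37 to 0.71 and are taken as unpaired. The alternatives are named with their values in the closing section. The percentile over averaged probes, array brightness as a covariate and the fit without slide 2 were added after the data were seen.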

Additional observations from a re-analysis of the deposited data

How the results depend on the processing

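Of the 8 genes, 1 passed in susceptible mice and 1 in resilient mice (Snhg6), both against naive mice. In susceptible mice the number was 0 with normexp background correction (offset 50; Snhg6 -0.45, limma adjusted p = 0.0780), with no filter on dim probes, with only the 2 groups compared, within slide 1, 2 or 3 alone and without slide 2. It was 3 with the slide or the scan day as a block (Eef1a1, Eef1b2, Snhg6), where 2213 and 2501 of all 14453 genes passed. It was also 3 with the replicate number as a block (Eef1b2, Eef2, Snhg6), where 1708 of all genes passed. In resilient mice it was 0 with normexp (Snhg6 -0.68, adjusted p = 0.101), with no filter, with only the 2 groups compared, within slide 1 or 2 alone and without slide 2. It was 3 with scan day as a block (Eef1a1, Eef1b2, Snhg6), where 1466 of all 14453 genes passed. With the replicate block it was 2 (Eef1b2, Snhg6), where 728 of all genes passed. With array brightness as a covariate it was 3 (Eef1g, Eef2, Snhg6), where 1100 of all genes passed. Leaving out 1 mouse gave 0 to 1 in susceptible and 0 to 1 in resilient mice with no block, and 1 to 4 and 0 to 2 with the slide as a block. Snhg6 kept its direction under all 17 and 16 other alternatives and passed in 10 and 10, with adjusted p from 0.0108 to 0.562 in susceptible and from 0.0166 to 0.415 in resilient mice. The cause of the lost calls was not tested, except that fits with fewer mice have fewer arrays.

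The median difference of the 8 genes in susceptible mice was -0.10 after quantile normalisation and -0.11 within slide 3. In resilient mice it was -0.17 after quantile normalisation, -0.22 within slide 1, and from -0.48 to -0.24 when 1 mouse was left out. Directions against naive mice turned for Pabpc1 and Npm1 alone. In susceptible mice Pabpc1 stood at 0.0072 with normexp, and Npm1 at -0.051 with the mean of its probes. In resilient mice Npm1 stood at -0.032 with the mean of its probes. Pabpc1 stood there at 0.091 with the slide as a block, 0.047 with scan day as a block, 0.14 and 0.054 within slides 1 and 2, and from -0.16 to 0.16 when 1 mouse was left out.

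Between susceptible and resilient mice no gene of the 8 passed under any setting run, and small differences turned. Under quantile normalisation Tpt1 stood at -0.030. Pabpc1 stood at 0.044 with normexp, 0.0051 in the authors' value table, 0.0033 with the percentile over averaged probes and 0.054 without slide 2. With the slide as a block Eef1g, Tpt1 and Npm1 stood at -0.0085, -0.0048 and 0.032, and with scan day Npm1 stood at 0.039. With the replicate block Eef1g, Eef2 and Npm1 stood at -0.038, -0.0006 and 0.054. Within slide 1 Eef2 and Tpt1 stood at -0.062 and -0.0057. Within slide 2 Eef1b2, Eef1g, Tpt1, Npm1 and Snhg6 stood at -0.095, -0.098, -0.13, 0.085 and -0.013. Leaving out 1 mouse gave ranges of -0.031 to 0.18 for Eef1b2, -0.14 to 0.29 for Eef1g, -0.053 to 0.27 for Eef2 and -0.065 to 0.059 for Tpt1. The ranges were -0.22 to 0.063 for Pabpc1 and -0.092 to 0.075 for Npm1.

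Of all genes, 376 passed in susceptible and 21 in resilient mice. The numbers were 580 and 40 with quantile normalisation, 112 and 0 with normexp, 35 and 0 with no filter, 66 and 0 with only the 2 groups compared, 2213 and 511 with the slide, 2501 and 1466 with scan day, 1708 and 728 with the replicate block, 1464 and 1100 with array brightness, and 0 and 0 without slide 2. Within slides 1, 2 and 3 they were 9, 0 and 1 in susceptible mice, and 0 within slides 1 and 2 in resilient mice. Where limma gave 0, between 1478 and 2941 genes had an unadjusted p under 0.05. Moderation with trend and robust settings gave 63 in resilient mice. Fits without 1 mouse gave 27 to 869 and 0 to 76. All probes of the 8 genes were above background on every array.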

Other observations

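Taken mouse by mouse, the median of the 8 genes relative to their naive means (log2) ran from -0.55 to -0.11 over the 6 susceptible mice, with a median of -0.31. In the 3 resilient mice it was -0.53, -0.29 and -0.33. In naive mice 1 to 5 it was -0.23, 0.11, 0.19, -0.11 and -0.14. All 3 resilient mice and 5 of 6 susceptible mice lay below the lowest naive mouse, and susceptible mouse 6 lay among the naive mice. The 75th percentile of the log2 signal, which served to scale the arrays, lay between 7.69 and 9.24 in susceptible mice and between 7.96 and 8.17 in resilient mice, against 7.25 to 8.64 in naive mice. With this percentile (array brightness) as a covariate, the median difference of the 8 genes was -0.35 in susceptible and -0.43 in resilient mice. Without this covariate they were -0.29 and -0.42. The part of the percentile in the medians of single mice was not tested.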
